A study of Mus musculus with 6 samples.

Results

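Senescence and p53 target genes were followed through the cell populations of the injured mouse lung as a set of 8 genes, Cdkn1a, Cdkn2a, Cdkn2b, Gdf15, Mdm2, Ccng1, Plaur and Glb1. They were chosen by name, from what the genes are known for and with earlier results of these data known, out of the 32285 genes counted in each library. The lungs came from 6 male C57BL/6 mice that carry a human CTLA4 knock-in (labelled hCTLA4), in which human sequence replaces exons of the mouse gene in all cells. The methods give the mice used as 12 weeks old, and give no age at lung collection. Every mouse had received bleomycin, an agent that injures the lung and leads to fibrosis, at 1.25 U/kg in 2 oropharyngeal doses given 2 weeks apart. From day 21 after the second dose, 3 mice were given ipilimumab, an antibody against human CTLA4 (labelled anti-CLTA4 mAb), and 3 were given the IgG1 isotype antibody. Each was given at 5 mg/kg 2 times a week for 4.5 weeks. All 6 mice were thus injured and all carried the knock-in, so no level below can be set against an uninjured lung. The right lung of each mouse gave 1 single-cell 3′ RNA library.

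Cellular senescence is a lasting arrest of the cell cycle after stress or damage, held by the p53 and p21 pathway and by the p16 and RB pathway. p53 is a transcription factor that is kept low by Mdm2 and that, when stabilised by DNA damage, switches on the arrest gene Cdkn1a along with Mdm2 itself, Ccng1 and Gdf15. Senescent cells often remain metabolically active, secrete cytokines and proteases, and show raised lysosomal β-galactosidase activity, the product of Glb1. In lung fibrosis senescence has been described in alveolar epithelium, fibroblasts, endothelium and macrophages, but each of these genes is also expressed for other reasons, and a UMI of one does not mark a senescent cell.

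By role, Cdkn1a (ENSMUSG00000023067, chr17:29090976-29100727, plus strand) encodes p21, an inhibitor of cyclin-dependent kinases. Cdkn2a (ENSMUSG00000044303, chr4:89274471-89294653, minus strand) encodes both p16Ink4a, an inhibitor of Cdk4 and Cdk6, and p19Arf, which binds Mdm2 and so stabilises p53. Cdkn2b (ENSMUSG00000073802, chr4:89306299-89311039, minus strand), separated from Cdkn2a by 11645 bases, encodes p15Ink4b, a kinase inhibitor induced by TGF-β. Mdm2 (ENSMUSG00000020184, chr10:117688875-117710758, minus strand) is the ubiquitin ligase that degrades p53. Ccng1 (ENSMUSG00000020326, chr11:40748552-40755311, minus strand) encodes cyclin G1. Gdf15 (ENSMUSG00000038508, chr8:70629393-70632456, minus strand) encodes a secreted stress cytokine of the TGF-β superfamily. Plaur (ENSMUSG00000046223, chr7:24462484-24475968, plus strand) encodes uPAR, the surface receptor of urokinase. Glb1 (ENSMUSG00000045594, chr9:114401076-114474898, plus strand) encodes lysosomal β-galactosidase. Positions are those of GENCODE vM21 on GRCm38, in which all 8 genes are protein coding.

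The 2 products of Cdkn2a start from different first exons and are read in different frames through the same exon 2. The sequences at the junction of the own first exon (last 30 bases, lower case) and the shared exon 2 (first 30 bases, capitals) are shown because they are the letters that separate p16Ink4a from p19Arf.
Cdkn2a-201 (p16Ink4a): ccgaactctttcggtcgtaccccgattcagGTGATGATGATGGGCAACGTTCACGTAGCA
Cdkn2a-202 (p19Arf): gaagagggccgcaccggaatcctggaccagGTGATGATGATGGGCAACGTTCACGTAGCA
The first exon spans 207 bases in Cdkn2a-201 (chr4:89281986-89282192) and 320 bases in Cdkn2a-202 (chr4:89294334-89294653), and exon 2 lies at chr4:89276645-89276985. After the first exon the 2 transcripts share 575 bases, and Cdkn2a-201 runs on for a further 70 bases. A 3′ library reads the shared end, so the Cdkn2a UMIs below cannot be divided between p16Ink4a and p19Arf.

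The consensus p53 response element, made of 2 half-sites with 0 to 13 bases between them, was searched on both strands in the 300-base windows around RefSeq start sites (250 bases before, 50 after, GRCm38.p6). It was found in 24 of 32851 windows of all genes, 0.0731%, and in 1 of the 11 windows that matched the 8 genes. That window is the one of the upstream Cdkn1a start (chr17:29090729-29091028, plus strand), where the match (in capitals) begins 73 bases before the start and is 32 bases long with a gap of 12 bases. The bases directly after the capitals come within 1 base of a further half-site, which the search did not count. The capitals thus mark the match and not the extent of a binding site.
Cdkn1a promoter window: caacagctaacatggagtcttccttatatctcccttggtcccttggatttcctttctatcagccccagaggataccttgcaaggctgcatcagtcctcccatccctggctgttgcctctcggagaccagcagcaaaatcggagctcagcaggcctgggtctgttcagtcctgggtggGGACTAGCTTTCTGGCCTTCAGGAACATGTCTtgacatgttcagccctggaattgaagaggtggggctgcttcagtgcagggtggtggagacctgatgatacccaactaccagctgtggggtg
At least 1 half-site, with or without the whole element, was found in 3 of the 11 windows, those of the upstream Cdkn1a start, Mdm2 and Ccng1, and in 8.36% of all windows. A list of 30 other p53 pathway genes matched 30 windows of 22 genes, of which 0 held the whole element and 10 at least a half-site. Such matches describe these windows alone, since response elements also lie in introns and further upstream.

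The libraries held 37666042 to 48612412 UMIs, and 24256 cells were used (4350, 4228 and 3270 in the IgG1 mice and 4339, 4005 and 4064 in the ipilimumab mice). Each cell was assigned to a gate when it had UMIs of at least 3 of 10 markers of a cell type, with a lead of at least 2 over every other list, none of the 8 genes being a marker. The 8 gates described here held 20138 cells, with a median of 7 to 9 own markers against 2 or 3 of the next list. AT2 cells, the surfactant-producing epithelium, were few, at 4, 6 and 0 in the IgG1 mice and 152, 6 and 5 in the ipilimumab mice. Fibroblasts numbered 40 to 135 per mouse, endothelial cells 81 to 282, alveolar macrophages 268 to 770 and interstitial macrophages 5 to 21. T cells numbered 730 to 983, B cells 1212 to 2059 and NK cells 200 to 325 per mouse. The ipilimumab replicate 1 library stood apart, with 78.8% of its UMIs in called cells against 92.4% to 93.1% in the others, and it gave nearly all AT2 cells, whose median depth was 1086 UMIs. Calls that were lost without it are named with their values below. Of 24194 distinct barcodes, 61 occurred in more than 1 library.

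The first comparison asked in which cells each gene was expressed. UMIs were summed per mouse and gate, scaled to the UMI total of that sum (CPM), and each gate was compared with the mean of the other 7 on the log2 scale, with the mouse as a block (edgeR quasi-likelihood test, called at Benjamini-Hochberg adjusted p under 0.05 and a log2 difference over 1). Macrophages and endothelium carried most of the higher levels, and lymphocytes most of the lower ones. In the alveolar macrophage gate 5 of the 8 genes were called higher, where 17.4% of the 13298 genes tested were, and 0 were called lower, where 15.1% were. In the interstitial macrophage gate 4 were higher (14.6% of all genes) and 0 lower (9.32%), and in the endothelial gate 4 were higher (23.8%) and 1 lower (11.4%). In the T gate 0 were higher (16.8%) and 4 lower (15.1%), in the NK gate 0 higher (13.3%) and 4 lower (17.0%), and in the B gate 1 higher (17.6%) and 4 lower (17.5%). In the fibroblast gate 1 was higher (26.8%) and 1 lower (11.5%), and in the AT2 gate 2 were higher (17.1%) and 2 lower (8.62%). The median log2 difference of the 8 genes was 1.60 in alveolar macrophages, 1.57 in interstitial macrophages and 1.17 in endothelium, where the medians of all genes were -0.16, -0.19 and 0.09. It was -0.80 in T, -1.31 in B and -1.84 in NK cells, where the medians of all genes were 0.05, 0.00 and -0.08.

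**Figure D1:**
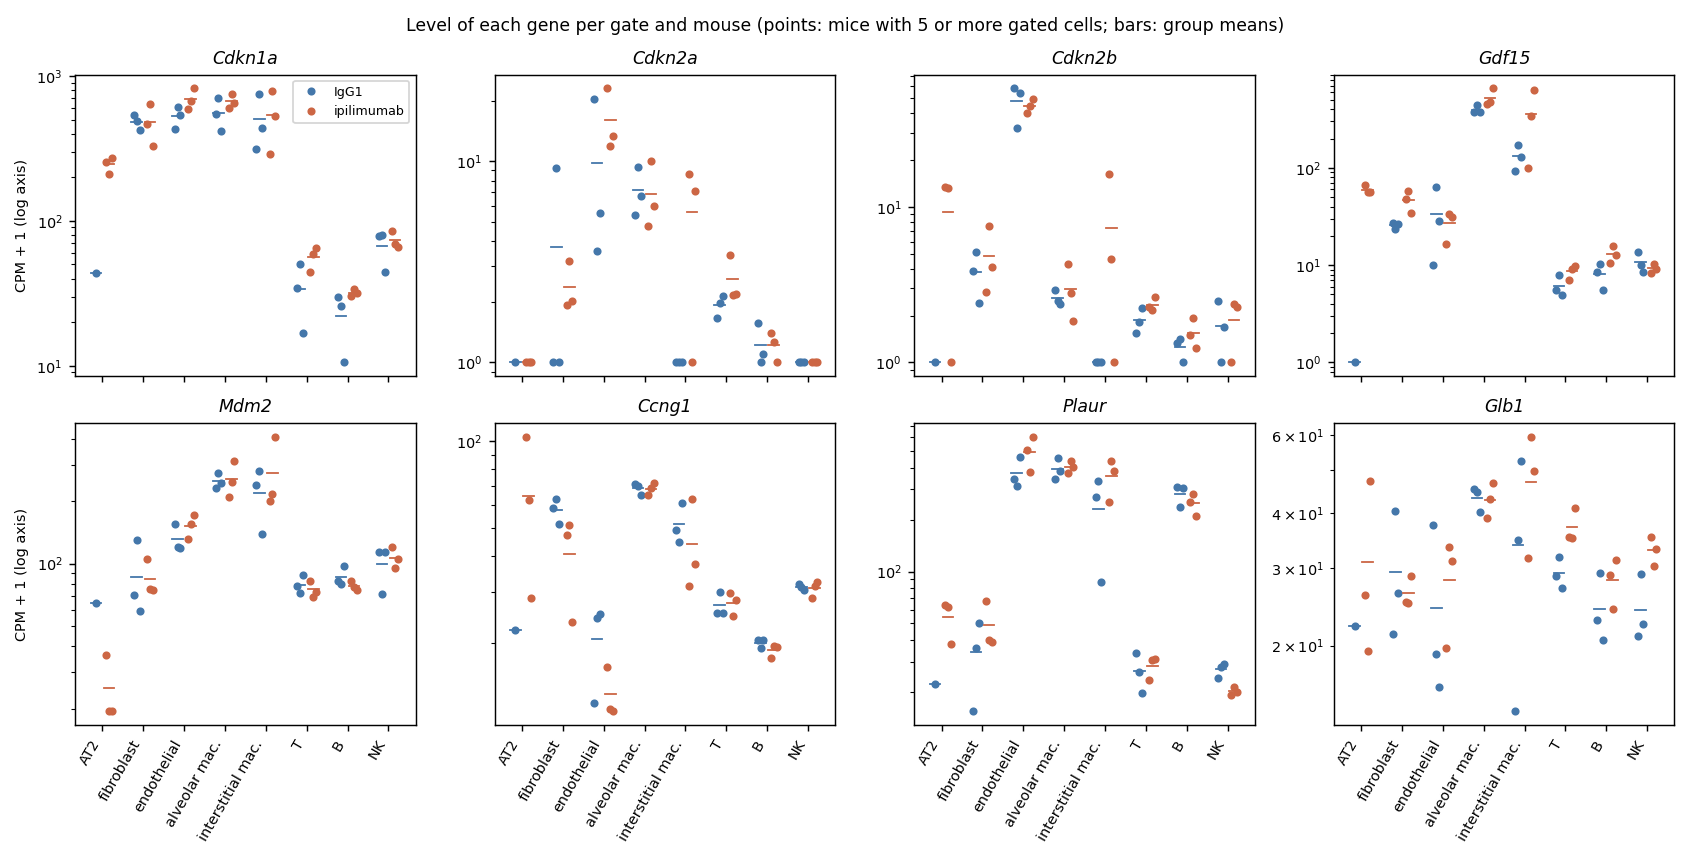
Level of each of the 8 genes by gate, as CPM + 1 on a logarithmic axis. Points are mice with at least 5 gated cells (IgG1 and ipilimumab in different colours) and bars are group means. Cdkn2b stands highest in endothelium, Gdf15 in both macrophage gates, and Glb1 is nearly level across the gates.

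Cdkn1a, the p21 gene, stood highest in 4 of the 8 gates. Its mean level over the mice was 611 ± 120 CPM (SD, n = 6) in alveolar macrophages, 609 ± 132 in endothelium, 517 ± 213 in interstitial macrophages and 481 ± 105 in fibroblasts, and these 4 gates overlapped. The fibroblast values did not overlap the AT2 values, which averaged 194 ± 104 CPM over the 4 mice with at least 5 cells. Of these the 1 IgG1 mouse had 42.4 CPM from 4 UMIs, and the ipilimumab mice had 209 to 268 CPM. NK cells (69.6 ± 14.7 CPM), T cells (44.1 ± 17.4) and B cells (26.1 ± 8.50) followed, each overlapping its neighbour. The log2 difference from the other gates was 1.92 in endothelium (SE 0.14, edgeR adjusted p = 5.1e-16), 1.88 in alveolar macrophages, 1.70 in fibroblasts and 1.68 in interstitial macrophages, all called higher. It was -3.22 in B cells, -2.32 in T cells and -1.74 in NK cells, all called lower. Neutrophils (424 to 564 CPM) and classical monocytes (450 to 496 CPM), which were not part of this test, lay in the range of fibroblasts. Also outside the test, dendritic cells had 261 to 462 CPM, nonclassical monocytes 214 to 393 CPM and ciliated cells 171 to 403 CPM (5 mice). These reached below the fibroblast range.

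Gdf15 was a macrophage gene in these lungs. It stood at 461 ± 105 CPM (SD, n = 6) in alveolar macrophages and at 245 ± 212 CPM in interstitial macrophages. The interstitial macrophage values lay above those of the other 6 gates, which averaged 44.0 CPM in AT2 cells (n = 4), 35.1 in fibroblasts, 29.5 in endothelium, 9.58 in B, 8.99 in NK and 6.38 in T cells and overlapped one another in that order. The log2 difference was 4.14 in alveolar macrophages (SE 0.13, edgeR adjusted p = 4.0e-29) and 3.18 in interstitial macrophages, where it was 2.55 without ipilimumab replicate 3, and the calls of lower level in T (-2.75), NK (-2.44) and B cells (-2.15) all passed. A UMI of Gdf15 was found in 84.7% of 3037 alveolar macrophages (exact 95% binomial interval 83.3% to 85.9%, median depth 21085 UMIs) and in 4.20% of 8711 B cells (3.79% to 4.64%, median depth 5610 UMIs). Intervals and limits of this kind cover counting error only.

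Free RNA would give a Gdf15 level of this size in lymphocytes. Gdf15 made up 513 to 1155 CPM of the RNA in empty droplets. Scaled by the alveolar macrophage markers found in the gate, this RNA alone would give 97.6% to 200% of the Gdf15 level of T cells, 76.8% to 327% in B cells and 66.2% to 113% in NK cells. In fibroblasts it would give 6.03% to 23.2% and in endothelium 12.7% to 87.5%, and in alveolar macrophages, scaled by B cell markers instead, 3.55% to 9.24%. Gdf15 in the 3 lymphocyte gates was therefore at the level of background. Of Cdkn1a, free RNA would give 22.3% to 58.4% of the B cell level, 8.98% to 30.6% of the T cell level, and at most 4.13% of the level in alveolar macrophages and 1.55% in endothelium. The upper ends in B cells come from ipilimumab replicate 3, without which they were 131% for Gdf15 and 30.4% for Cdkn1a.

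**Figure D2:**
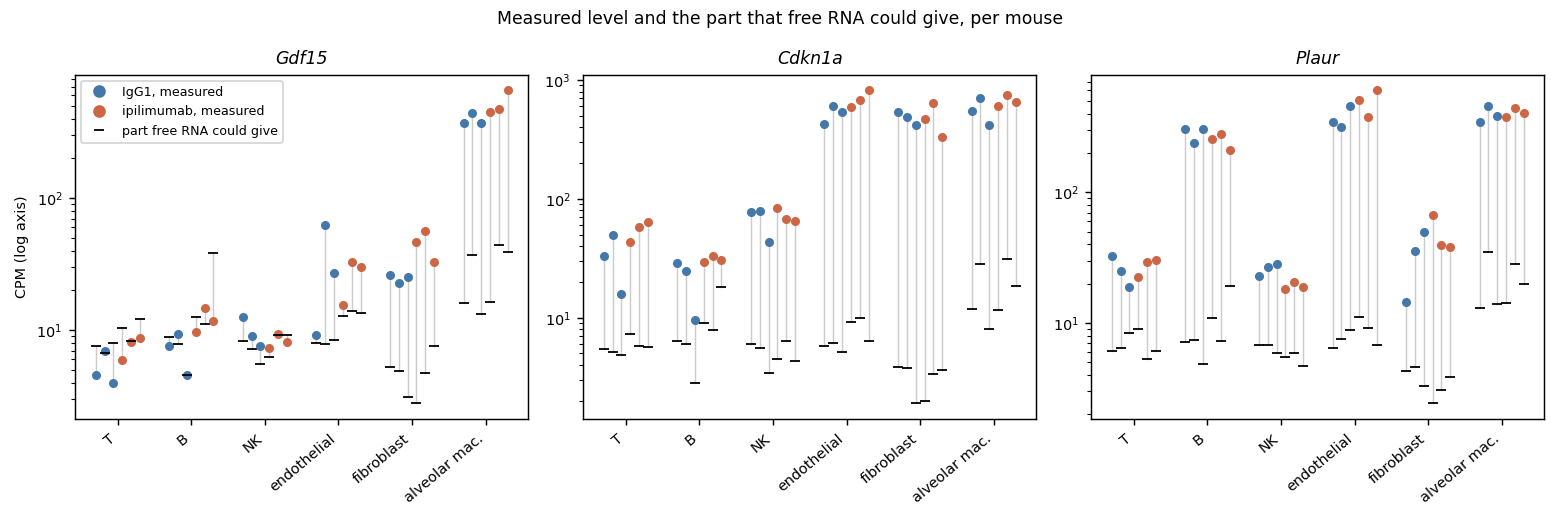
Measured level of Gdf15, Cdkn1a and Plaur in 6 gates (points, CPM, 1 per mouse, logarithmic axis) with the part that free RNA could give in the same mouse (black dashes). In T, B and NK cells the dashes reach the Gdf15 points, while in alveolar macrophages and fibroblasts they lie below them.

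Plaur was high in 4 gates. Endothelium averaged 433 ± 110 CPM (SD, n = 6), alveolar macrophages 400 ± 42.0, interstitial macrophages 293 ± 123 and B cells 265 ± 38.8, and each overlapped the next. The B cell values did not overlap those of AT2 cells, at 45.6 ± 20.1 CPM (n = 4), and fibroblasts (40.5), T cells (26.4) and NK cells (22.6) lay in the same low range. The log2 difference was 2.22 in endothelium (SE 0.14, edgeR adjusted p = 3.3e-18), 2.06 in alveolar macrophages, 1.71 in interstitial macrophages and 1.52 in B cells. In NK cells it was -2.72, in T cells -2.22, in fibroblasts -1.40 and in AT2 cells -1.16, all called lower. Outside the 8 gates the highest Plaur levels were those of neutrophils, at 1484 to 1808 CPM in the 6 mice, and of classical monocytes, at 709 to 834 CPM. Free RNA would give 1.60% to 9.19% of the B cell level of Plaur, but 18.1% to 44.5% of the T cell level, and the upper end in B cells was 4.31% without ipilimumab replicate 3.

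Mdm2 was called higher in both macrophage gates. It averaged 252 ± 35.3 CPM (SD, n = 6) in alveolar and 246 ± 91.6 CPM in interstitial macrophages, with log2 differences of 1.33 (SE 0.11, edgeR adjusted p = 2.2e-14) and 1.45. Endothelium (141 CPM), NK cells (102), fibroblasts (84.5), B cells (81.3) and T cells (76.1) followed with overlapping values. AT2 cells were called lower at -1.86, with 25 Mdm2 UMIs in 4 mice, 33.9 CPM on average, all below the T cell values. High Mdm2 was not limited to macrophages. Ciliated cells and classical monocytes, which were not part of this test, had 231 to 299 CPM (5 mice) and 182 to 259 CPM (6 mice).

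Ccng1 reached 67.7 ± 3.04 CPM (SD, n = 6) in alveolar macrophages, where the log2 difference of 0.99 lay just under the limit, and it was called at 1.06 to 1.31 in 6 of the alternatives. AT2 cells (53.3 CPM, n = 4), fibroblasts (48.4 CPM), interstitial macrophages (46.9 CPM) and NK cells (30.2 CPM) followed, each overlapping its neighbour. Endothelium was called lower, at 16.0 ± 6.30 CPM and a log2 difference of -1.45 (SE 0.18, edgeR adjusted p = 2.5e-09), the opposite direction to Cdkn1a in the same cells. The call of lower level in B cells (-1.02) was not kept in 5 of 6 fits that left out 1 mouse (-0.72 to -0.93), the exception being IgG1 replicate 1. The call of higher level in AT2 cells (1.23) fell to 0.28 without ipilimumab replicate 1.

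Glb1 was called in 0 of the 8 gates. Its means ran from 25.2 CPM in B cells to 42.1 ± 3.08 CPM (SD, n = 6) in alveolar macrophages, and every gate overlapped its neighbour in that order. The log2 difference in alveolar macrophages, 0.48 (SE 0.09, edgeR adjusted p = 2.4e-05), passed the p threshold but not the limit on size. Of 13 lysosomal glycosidases and partners tested, 11 were called higher in alveolar macrophages (84.6%, against 17.4% of all genes) and 12 in interstitial macrophages (92.3%, against 14.6%), among them Gusb, β-glucuronidase (2.75 and 2.82), Ctsa, the protective protein of the β-galactosidase complex (2.71 and 2.71), and Hexa, a subunit of β-hexosaminidase (2.67 and 3.25).

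The Cdkn2 genes were rare and unevenly placed. In all, 709 Cdkn2a UMIs were found in 254 cells and 577 Cdkn2b UMIs in 399 cells. Alveolar macrophages held 438 of the Cdkn2a UMIs, 61.8% of them, where they held 28.9% of all UMIs. Endothelium held 228 of the Cdkn2b UMIs, 39.5% of them, where it held 2.14% of all UMIs.

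In endothelium Cdkn2b stood at 57.1, 31.2 and 52.96 CPM in the IgG1 mice and at 39.2, 43.4 and 48.6 CPM in the ipilimumab mice. The mean of 45.4 ± 9.48 CPM (SD, n = 6) did not overlap that of any other gate, the next being AT2 cells at 6.20 CPM from 7 UMIs. The log2 difference was 4.72 (SE 0.24, edgeR adjusted p = 1.7e-21). The AT2 call (2.01, edgeR adjusted p = 0.039) was lost without IgG1 replicate 1 (1.88), ipilimumab replicate 1 (1.36) or ipilimumab replicate 2 (1.97). The calls of lower level were -2.96 in B, -1.94 in NK and -1.17 in T cells, the last lost without ipilimumab replicate 1 (-0.80) or 2 (-0.94).

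Cdkn2a reached 19.4, 2.60 and 4.54 CPM in endothelium of the IgG1 mice (17, 1 and 3 UMIs) and 22.1, 10.9 and 12.4 CPM in that of the ipilimumab mice (27, 7 and 14 UMIs). Alveolar macrophages had 4.40, 8.39 and 5.68 CPM in the IgG1 mice (41, 131 and 37 UMIs) and 3.75, 8.98 and 4.97 CPM in the ipilimumab mice (25, 139 and 65 UMIs). The 2 gates overlapped, and both were called higher, at 4.64 (SE 0.55, edgeR adjusted p = 2.7e-09) and 3.37 (SE 0.49, edgeR adjusted p = 2.1e-07). The sizes of these log2 differences depend on NK and AT2 cells, whose level of 0 has no defined log2 value. Their own fitted differences were -5.36 (SE 88545) and -5.57 (no SE). In mean CPM, endothelium stood at 11.974 against 1.6965 in the other gates, and alveolar macrophages at 6.03 against 2.55. Whether the calls hold without NK and AT2 cells was not tested. T cells averaged 1.26 ± 0.597 CPM. B cells, at 0.224 CPM, did not overlap them. The gene was not detected in NK or AT2 cells. In NK cells 0 of 1458 cells had a UMI, which at the limit of 3 counts allows a share of cells with a UMI of up to 0.206% (exact 95% binomial upper bound 0.253%). In AT2 cells 0 of 173 had one, which allows up to 1.73% (upper bound 2.11%), at a median depth of 1086 UMIs that would miss low levels. Empty droplets held 1.18 to 8.39 CPM of Cdkn2a, and free RNA would give 0.529% to 5.95% of its level in alveolar macrophages and at most 0.913% in endothelium.

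Cdkn2a was concentrated in few alveolar macrophages. UMIs were found in 10, 33 and 6 of these cells in the IgG1 mice (2.26%, 4.29% and 2.24%) and in 10, 32 and 15 in the ipilimumab mice (2.88%, 4.71% and 2.84%). The 106 cells had 4.13 UMIs on average, with a median of 3 and a highest value of 18, and 63 of them had at least 3. Cdkn2b in the same gate was spread singly, with 111 UMIs in 98 cells, 90 of which had 1. In endothelium 34 of 1018 cells had Cdkn2a (10, 1 and 1 in the IgG1 mice and 10, 4 and 8 in the ipilimumab mice) and 131 had Cdkn2b (24, 8 and 21, and 28, 14 and 36). The share of T cells with Cdkn2a was 0.846% (exact 95% binomial interval 0.616% to 1.13%) at a median depth of 8527 UMIs, against 0 of 1458 NK cells at 6012 UMIs.

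**Figure D3:**
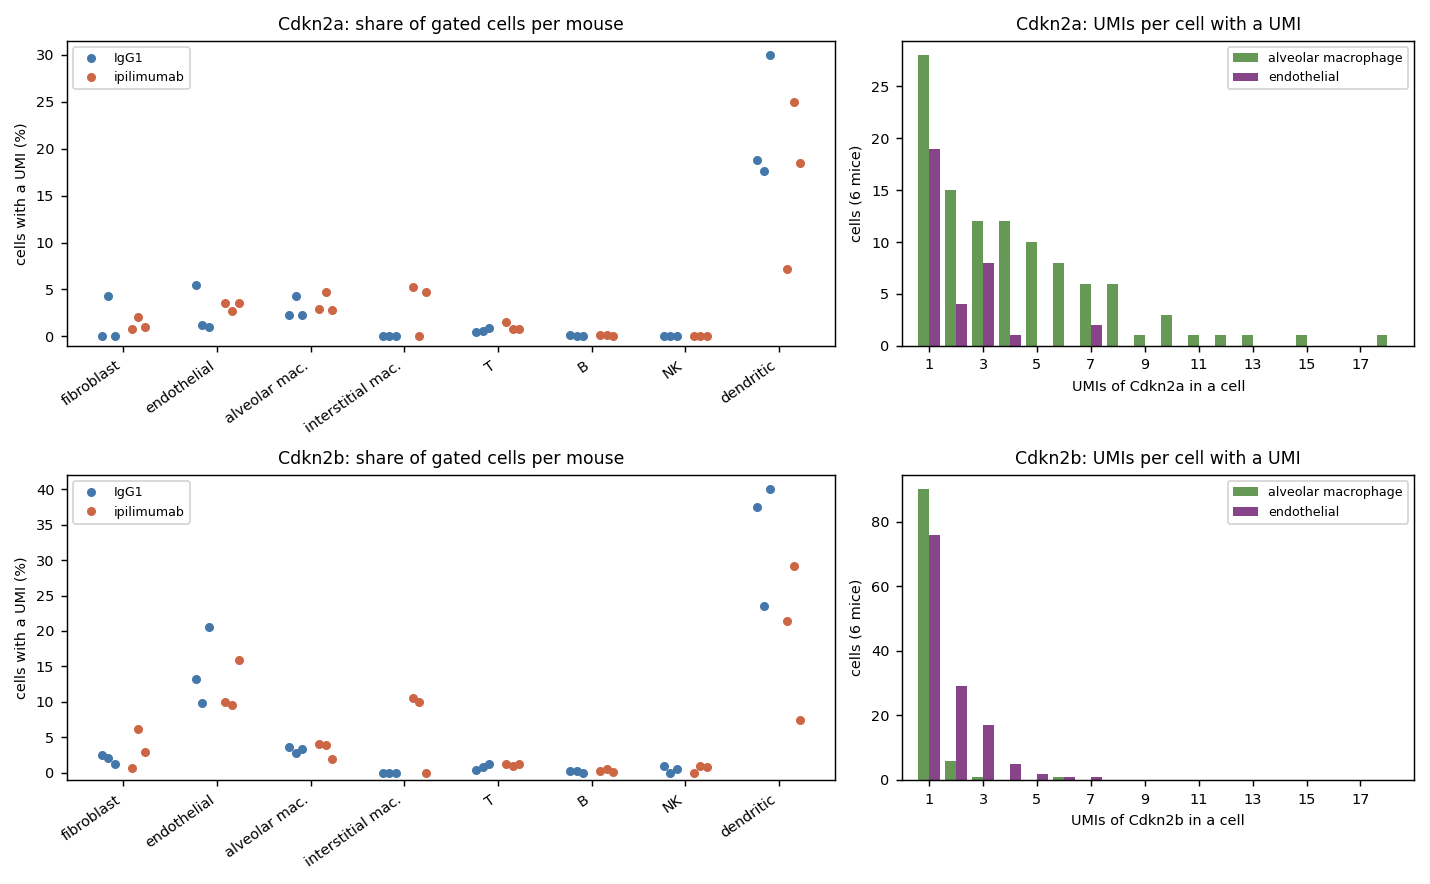
Left, share of cells (percent) with at least 1 UMI of Cdkn2a or Cdkn2b in each mouse by gate, AT2 cells left out. Right, number of cells by UMIs per cell in alveolar macrophages and endothelium, where Cdkn2a reaches 18 UMIs in 1 alveolar macrophage and Cdkn2b in that gate is mostly at 1.

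The 2 neighbouring genes were often found in the same endothelial cells. Of the 34 endothelial cells with Cdkn2a, 20 had Cdkn2b (58.8%, exact 95% binomial interval 40.7% to 75.4%), against 111 of the 984 others (11.3%, 9.37% to 13.4%). The first were deeper, with a median of 9193 UMIs against 3666. Among cells of at least 9193 UMIs, Cdkn2b was found in 15 of 17 with Cdkn2a (88.2%, 63.6% to 98.5%, median 11407 UMIs) and in 45 of 123 without (36.6%, 28.1% to 45.7%, median 11133 UMIs). In alveolar macrophages 16 of 106 cells with Cdkn2a had Cdkn2b (15.1%, 8.88% to 23.4%), against 82 of 2931 (2.80%, 2.23% to 3.46%), at closer median depths of 24810 and 20927 UMIs. Cells of 1 mouse share their library, so these intervals describe the pooled cells and no test was made. Cdkn1a was found in 96.2% of the alveolar macrophages with Cdkn2a and in 95.2% of those without.

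T cells with Cdkn2a were mostly cells with UMIs of the proliferation genes Mki67 or Top2a. Such UMIs were found in 32 of 44 T cells with Cdkn2a (72.7%) and in 12.1% of the 5155 without, and the share was higher in 6 of 6 mice, from 25% of 8 cells in ipilimumab replicate 3 to 100% of 4 in IgG1 replicates 1 and 2. The first were deeper, with a median of 19439 UMIs against 8507. Among T cells of at least 19439 UMIs, Mki67 or Top2a was found in 21 of 22 with Cdkn2a (95.5%, exact 95% binomial interval 77.2% to 99.9%) and in 149 of 227 without (65.6%, 59.1% to 71.8%). Their median depths still differed, at 36620 and 26230 UMIs, and the part of depth in this difference was not tested. In alveolar macrophages the shares were 21.7% and 16.3%.

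Outside the 8 gates, dendritic cells had 46 Cdkn2a UMIs in 21 of 108 cells and 62 Cdkn2b UMIs in 26 cells. Their median level over the 6 mice was 26.2 CPM of Cdkn2a (3.82 to 32.9) and 34.8 CPM of Cdkn2b (7.21 to 65.5). These ranges overlapped those of endothelium for both genes. The pooled share of dendritic cells with a UMI was 19.4% for Cdkn2a and 24.1% for Cdkn2b, at a median depth of 19293 UMIs. In endothelium it was 3.34% and 12.9%, at 3737.5 UMIs. Plasma cells had 8 Cdkn2a UMIs in the 3 mice with at least 5 such cells, at 3.02 to 47.3 CPM, and ciliated cells 20 Cdkn2b UMIs in 5 mice, at 0 to 42.4 CPM. These gates were not part of the test between gates.

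The second comparison asked whether ipilimumab changed the genes within a gate, with the ipilimumab mice set against the IgG1 mice (edgeR quasi-likelihood test per gate, called at adjusted p under 0.05 and a log2 fold change over 0.3). Of the 47 gene and gate pairs with 3 mice a group, 0 were called, and the lowest adjusted p was 0.429. The AT2 gate had 1 IgG1 mouse with enough cells, and its 2 pairs, also not called, stand apart from these. Few genes of any kind were called, at 0.0274% of 7305 genes in fibroblasts, 0.0126% of 7958 in endothelium, 0.00821% of 12186 in T cells, and 0% in alveolar macrophages, interstitial macrophages, B cells and NK cells, as in the AT2 fit. Of the 47 pairs 30 had a positive and 17 a negative log2 fold change, and 8 had an unadjusted p under 0.05 (17.0%, against 4.05% to 10.3% of all genes by gate). Those pairs were Gdf15 in fibroblasts, both macrophage gates and B cells, Cdkn1a in endothelium and T cells, and Glb1 in T and NK cells. Gates of the same mouse are not independent, so this share does not describe the 8 genes as a set. The values of the groups did not overlap in 2 of 6 genes tested in fibroblasts (13.4% of all genes), 0 of 7 in endothelium (16.2%), 1 of 8 in alveolar macrophages (9.45%), 0 of 6 in interstitial macrophages (9.15%), 2 of 8 in T cells (12%), 2 of 6 in B cells (12.7%) and 2 of 6 in NK cells (10.5%).

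**Figure D4:**
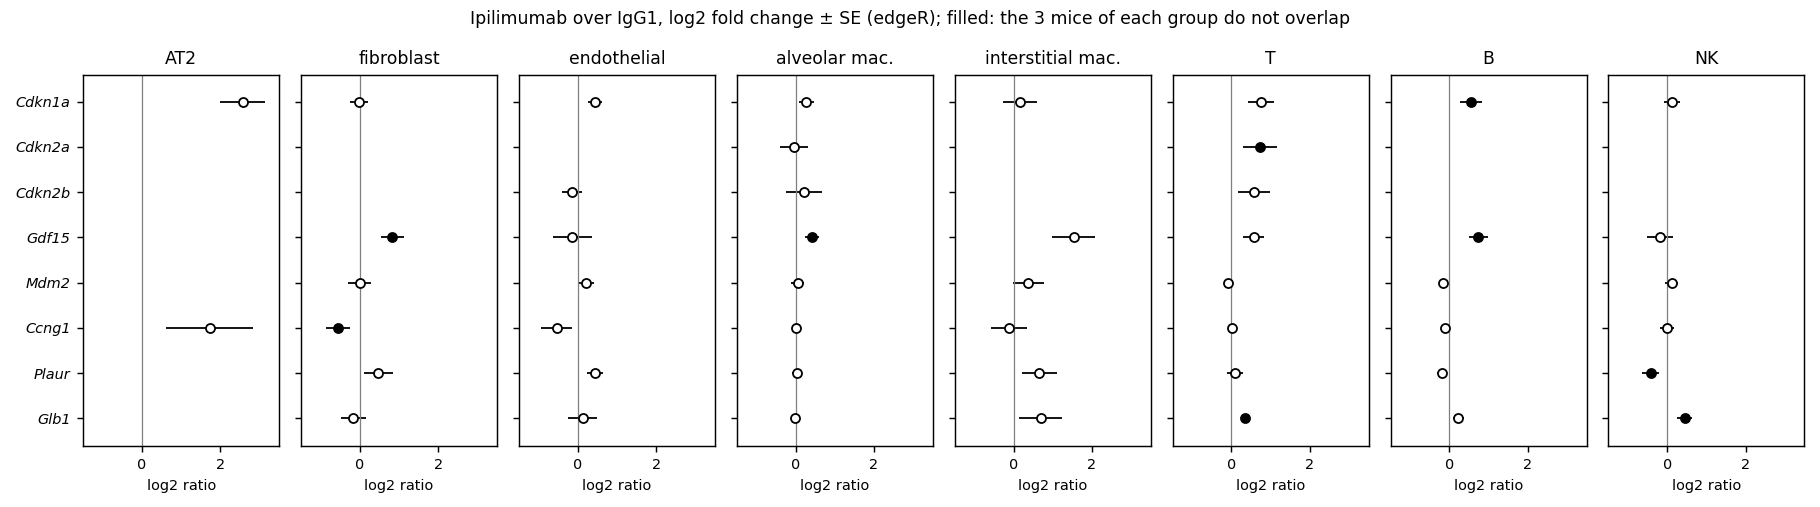
Log2 fold change, ipilimumab over IgG1, of each gene in each gate (points) with its standard error (bars). Filled points are pairs in which the values of the 3 mice of one group do not overlap those of the other. Gdf15 in interstitial macrophages lies at 1.54 with an SE of 0.55, and no pair passed the adjusted threshold.

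Gdf15 had the 2 largest log2 fold changes among the pairs with 3 mice a group, in interstitial macrophages and fibroblasts. In fibroblasts it stood at 26.1, 22.8 and 25.4 CPM in the IgG1 mice and at 46.3, 56.8 and 33.0 CPM in the ipilimumab mice. All 3 ipilimumab values lay above the IgG1 values, with a log2 fold change of 0.83 (SE 0.30, edgeR adjusted p = 0.520). In alveolar macrophages the levels were 372, 443 and 371 CPM against 447, 475 and 656 CPM, again without overlap but with IgG1 replicate 2 and ipilimumab replicate 1 nearly level (log2 fold change 0.42, SE 0.17, edgeR adjusted p = 0.876). In interstitial macrophages they were 92.3, 169 and 129 CPM against 99.3, 344 and 635 CPM, from 5 to 21 cells per mouse, and the groups overlapped (1.54, SE 0.55, edgeR adjusted p = 0.997). With stricter gates this value became -0.36. In B cells the levels were 7.58, 9.37 and 4.61 CPM against 9.61, 14.6 and 11.7 CPM (0.74, SE 0.24, edgeR adjusted p = 0.557), where free RNA would by itself give levels of this size. The B cells of ipilimumab replicate 3 held 753 CPM of alveolar macrophage markers, against 31.4 to 66.7 CPM in the other mice. Endothelium (-0.14) and NK cells (-0.19) had negative values, and the endothelial value became 0.98 when doublets were kept.

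Cdkn1a in endothelium stood at 427, 605 and 540 CPM in the IgG1 mice and at 589, 673 and 821 CPM in the ipilimumab mice. The groups overlapped at 589 and 605 CPM, and the log2 fold change was 0.44 (SE 0.19, edgeR adjusted p = 0.429). In T cells it stood at 33.3, 49.8 and 16.0 CPM against 43.5, 58.1 and 63.7 CPM (0.75, SE 0.33, edgeR adjusted p = 0.628). In B cells it stood at 28.8, 24.9 and 9.55 CPM against 29.4, 32.8 and 30.9 CPM, which did not overlap (0.55, SE 0.28, edgeR adjusted p = 0.662). Free RNA would give up to 18.0 CPM of this, 58.4% of the level, in ipilimumab replicate 3. Whether the groups would overlap without that part was not tested. IgG1 replicate 3 was the lowest mouse in T, B, NK cells and alveolar macrophages, and its empty droplets also held the least Cdkn1a, 316 CPM against 440 to 777 in the others. In fibroblasts the fold change was -0.02, with 539, 489 and 422 CPM against 466, 640 and 330 CPM. In AT2 cells the 1 IgG1 mouse with at least 5 cells had 42.4 CPM from 4 UMIs, and the ipilimumab mice had 255, 209 and 268 CPM (2.57, SE 0.58, edgeR adjusted p = 0.592). IgG1 replicate 1, whose 4 AT2 cells gave 150 CPM, was left out of that fit, which assumes that the lone IgG1 mouse varies like the ipilimumab mice and has no replicate check.

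Among the Cdkn2 genes, endothelial Cdkn2b, with the values given above, had a log2 fold change of -0.14 (SE 0.25), and the groups overlapped. Cdkn2a in alveolar macrophages had one of -0.04 (SE 0.36). In T cells Cdkn2a was at 0.671, 0.971 and 1.15 CPM in the IgG1 mice (5, 7 and 11 UMIs) and at 2.41, 1.17 and 1.19 CPM in the ipilimumab mice (21, 10 and 11 UMIs). The groups did not overlap but nearly touched, and the difference was not called (0.73, SE 0.43, edgeR adjusted p = 0.719). Endothelial Cdkn2a did not pass the filter on low counts. Over all cells of a library, a UMI of Cdkn2b was found in 1.90% ± 0.116 of cells in the ipilimumab and 1.39% ± 0.159 in the IgG1 mice (SD, n = 3 each, two-sided exact permutation p = 0.1, the smallest that 3 against 3 allows). For Cdkn2a the shares were 1.23% ± 0.145 and 0.845% ± 0.258 (SD, n = 3 each, two-sided exact permutation p = 0.2). Adjusted over the 8 genes, both p were 0.533. In CPM over all cells the exact permutation p were 0.4 for Cdkn2b and 0.5 for Cdkn2a. Endothelium made up 4.16%, 1.92% and 3.12% of cells in the IgG1 mice and 6.50%, 3.65% and 5.56% in the ipilimumab mice. Within endothelium the mean share with Cdkn2b was 14.6% in the IgG1 and 11.8% in the ipilimumab mice. How far the make-up of the libraries enters the shares over all cells was not tested.

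Glb1 in T cells stood at 27.8, 30.8 and 26.0 CPM in the IgG1 mice and at 34.2, 34.1 and 40.1 CPM in the ipilimumab mice, and in NK cells at 20.02, 28.0 and 21.4 CPM against 34.3, 29.3 and 32.1 CPM. In both gates all ipilimumab values lay above the IgG1 values. The log2 fold change was 0.35 in T cells (SE 0.11, edgeR adjusted p = 0.578) and 0.44 in NK cells (SE 0.20, edgeR adjusted p = 0.891). The share of cells with a Glb1 UMI also did not overlap, at 22.2% against 18.4% of T cells and 16.8% against 11.8% of NK cells (two-sided exact permutation p = 0.1 in each, adjusted p = 1 over 55 pairs). With each cell thinned to 1000 UMIs the shares were 3.07% and 2.74% of T cells and 3.09% and 1.93% of NK cells, at exact permutation p = 0.7 and 0.3. Cells under 1000 UMIs were left out of these shares (2 of 2440 T cells and 7 of 681 NK cells in the IgG1 mice, and 11 of 2759 and 7 of 777 in the ipilimumab mice). In alveolar macrophages, the highest of the 8 gates for Glb1, the fold change was -0.01.

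Thinned shares reached the smallest exact permutation p of 0.1 in 6 of 52 pairs, against 2 pairs, both Glb1, before thinning. That p cannot pass 0.05, and the thinned values were not adjusted over the pairs. It says only that the 2 groups did not overlap. How often all genes do so after thinning was not computed, and each cell was thinned in a single random draw. As means over mice, Gdf15 was found in 4.755% of fibroblasts in the ipilimumab and 1.39% in the IgG1 mice, and in 19.9% and 1.59% of interstitial macrophages. Cdkn1a was found in 42.6% and 30.4% of endothelial cells, Mdm2 in 8.46% and 4.79% of fibroblasts, Ccng1 in 2.91% and 2.28% of T cells and Cdkn2b in 0.175% and 0% of B cells. Before thinning the same shares overlapped in all 6 pairs, at exact permutation p from 0.4 to 1. Thinning left out 100 of 654 endothelial cells and 50 of 283 fibroblasts in the ipilimumab mice, and 47 of 364 and 17 of 168 in the IgG1 mice.

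Plaur in NK cells was 23.0, 26.9 and 28.3 CPM in the IgG1 mice and 18.2, 20.4 and 18.9 CPM in the ipilimumab mice, with all ipilimumab values below (-0.43, SE 0.21, edgeR adjusted p = 0.891). In endothelium it was 342, 314 and 459 CPM against 503, 375 and 603 CPM, which overlapped (0.44, SE 0.21, edgeR adjusted p = 0.494). Ccng1 in fibroblasts was 58.0, 62.2 and 50.8 CPM against 46.3, 50.2 and 22.7 CPM, without overlap (-0.55, SE 0.31, edgeR adjusted p = 0.723). Mdm2, the p53 ligase, had values from -0.15 in B cells to 0.38 in interstitial macrophages, and its groups overlapped in all 7 gates tested with 3 mice a group.

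Whether the treatment effect of a gene differed between gates was tested over all 8 gates in 1 fit. It was called for 0% of 15685 genes by edgeR, with 1180 at an unadjusted p under 0.05. The lowest values among the 8 genes were those of Gdf15 (edgeR adjusted p = 0.443) and Cdkn1a (edgeR adjusted p = 0.648). With no filter on low counts these adjusted p became 4.1e-04 and 0.0028, in a fit that called 855 genes, so the call for both depended on the filter. The same change brought Gdf15 in interstitial macrophages (1.62), Gdf15 in B cells (0.73) and Cdkn1a in B cells (0.54) past the treatment threshold, with 57 and 270 genes called in those gates.

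The other genes of the pathways were counted in lists. Of 30 p53 pathway genes, 29 were tested between gates. The numbers called higher were 8 in endothelium (27.6%, against 23.8% of all genes), 7 in B cells (24.1% against 17.6%), 6 in fibroblasts (20.7% against 26.8%), 6 in AT2 cells (20.7% against 17.1%), 5 in T cells (17.2% against 16.8%) and 4 in each of alveolar macrophages, interstitial macrophages and NK cells (13.8% against 17.4%, 14.6% and 13.3%). The numbers called lower were 7 in alveolar macrophages (24.1% against 15.1%), 6 in interstitial macrophages (20.7% against 9.32%) and 5 in B cells (17.2% against 17.5%). Endothelium, fibroblasts, T and NK cells had 4 each (13.8%, against 11.4%, 11.5%, 15.1% and 17.0%), and AT2 cells 1 (3.45% against 8.62%). Shares called higher were thus near those of all genes in most gates. Endothelium was led by Epha2, a receptor tyrosine kinase (5.73), and the death receptor Tnfrsf10b (5.20), fibroblasts by the receptor Eda2r (7.15) and Phlda3 (3.39), alveolar macrophages by Perp (5.95) and AT2 cells by the autophagy gene Dram1 (6.01). Between treatments 0 of them were called in any gate. The lowest p were those of Trp53inp1 in endothelium, at 49.9 ± 15.8 CPM in IgG1 and 22.7 ± 5.23 in ipilimumab mice (SD, n = 3 each, log2 fold change -1.11, edgeR adjusted p = 0.150), and Dram1 in fibroblasts, at 28.3 ± 7.40 and 60.4 ± 12.1 CPM (1.14, edgeR adjusted p = 0.358).

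Of 15 CDK inhibitors and RB pathway genes, 6 were higher (40%, against 17.4% of all genes) and 6 lower (40% against 15.1%) in alveolar macrophages. In fibroblasts 4 were higher (26.7% against 26.8%) and 2 lower (13.3% against 11.5%), and the gate was led by Cdkn1c, the p57 inhibitor (4.94). In endothelium and AT2 cells Ccnd1, cyclin D1, was the 1 gene called higher (4.20 and 4.78), a share of 6.67% against 23.8% and 17.1%. In these gates 1 and 6 genes were called lower (6.67% and 40%, against 11.4% and 8.62%). T cells had 5 higher and 1 lower and NK cells 5 higher and 2 lower. The shares higher were 33.3% in each, against 16.8% and 13.3%, and the shares lower 6.67% and 13.3%, against 15.1% and 17.0%. Cdkn2d, the p19Ink4d inhibitor, was among those higher (1.76 and 1.64). B cells had 3 higher and 4 lower (20% and 26.7%, against 17.6% and 17.5%). Interstitial macrophages had 3 higher and 2 lower (20% and 13.3%, against 14.6% and 9.32%). Between treatments 0 were called, and the lowest p was that of Ccnd3 in B cells (-0.42, edgeR adjusted p = 0.557) and in T cells (-0.55, adjusted p = 0.578).

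Of 25 senescence-associated secretory factors, 18 were higher and 4 lower in fibroblasts (72% and 16%, against 26.8% and 11.5% of all genes) and 17 higher and 1 lower in interstitial macrophages (68% and 4%, against 14.6% and 9.32%). Alveolar macrophages had 10 higher and 5 lower (40% and 20%, against 17.4% and 15.1%). Endothelium had 9 higher and 7 lower (36% and 28%, against 23.8% and 11.4%). AT2 cells had 6 higher and 1 lower (24% and 4%, against 17.1% and 8.62%). T cells had 3 higher and 12 lower (12% and 48%, against 16.8% and 15.1%). B and NK cells had 1 higher and 14 lower each (4% and 56%). All genes stood at 17.6% and 17.5% in B and at 13.3% and 17.0% in NK cells. Fibroblasts were led by the matrix protease Mmp3 (12.52), Igfbp6 (10.39) and Mmp2 (10.31), and interstitial macrophages by the chemokine Ccl8 (11.11) and the elastase Mmp12 (9.20). Ccl8 in that gate ranged from 0 to 2941 CPM, with a mean of 599 CPM over the 6 mice, so 1 mouse held most of its summed level. Such genes are also products of these cell types without senescence. Areg, amphiregulin, an EGF receptor ligand, was called between treatments in T cells, at 16.3 ± 2.82 CPM in the IgG1 and 46.0 ± 5.03 CPM in the ipilimumab mice (SD, n = 3 each, log2 fold change 1.497, SE 0.15, edgeR adjusted p = 0.031). It was the 1 gene called in that gate, and 0 genes were called there without IgG1 replicate 1, IgG1 replicate 3, ipilimumab replicate 2 or ipilimumab replicate 3, or with cells called by the UMI threshold alone. Ccl8 in interstitial macrophages had a log2 fold change of 5.06 (edgeR adjusted p = 0.997), with 38.0 ± 33.1 CPM in the IgG1 and 1160 ± 1543 CPM in the ipilimumab mice (SD, n = 3 each).

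Of the 8 urokinase system genes tested of 11, 7 were higher in fibroblasts (87.5%, against 26.8% of all genes). Endothelium, alveolar and interstitial macrophages had 4 higher each (50%, against 23.8%, 17.4% and 14.6%). AT2 cells had 2 higher (25% against 17.1%) and NK cells 1 (12.5% against 13.3%). In T, B and NK cells 5, 6 and 4 were lower (62.5%, 75% and 50%, against 15.1%, 17.5% and 17.0%). Fibroblasts were led by the plasminogen activator Plat (6.72) and the protease inhibitor Serpine2 (6.43), and the receptor gene Plaur was called lower there. In endothelium and interstitial macrophages, where Plaur was high, Plau, urokinase itself, was called higher (4.83 and 5.06), and in alveolar macrophages Lrp1, an endocytic receptor (4.27). Between treatments the lowest p were those of Lrp1 in B cells (0.996, edgeR adjusted p = 0.493) and Plat in T cells (-1.54, adjusted p = 0.460). Among lysosomal genes they were those of Gm2a in NK cells (-1.58, edgeR adjusted p = 0.836) and Gusb in interstitial macrophages (1.22, adjusted p = 0.997). Of 11 survival and nuclear senescence markers, 5 were higher in T cells (45.5%, against 16.8% of all genes) and 4 in interstitial macrophages (36.4% against 14.6%). NK cells, alveolar macrophages and endothelium had 3 higher each (27.3%, against 13.3%, 17.4% and 23.8%). AT2 cells had 2 higher (18.2% against 17.1%), and B cells and fibroblasts 1 each (9.09%, against 17.6% and 26.8%). T and NK cells were led by the anti-apoptotic gene Bcl2 (3.39 and 3.45), and Bcl2l1, which encodes Bcl-xL, was higher in endothelium (2.23). Between treatments the lowest p were those of Mki67 in B cells (0.99, edgeR adjusted p = 0.227) and Ezh2 in endothelium (0.90, adjusted p = 0.176).

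The genes whose log2 CPM followed each of the 8 most closely were found over the 46 gate and mouse sums, which share mice and gates, as Pearson r. Cdkn1a was followed by Agap1 and Vwa5a (both 0.94) and Slc48a1 (0.93), and Gdf15 by Mfsd12 (0.94), Gusb (0.91) and Colgalt1 (0.90). Plaur was followed by Trim25 (0.89), Lgals8 and Gngt2 (both 0.88), and Mdm2 by Fes (0.89), Sh3glb1 (0.85) and Comtd1 (0.84). Cdkn2b was followed by Rgs12 (0.85), Ccdc85b (0.85) and D630045J12Rik (0.84), Cdkn2a by Gna14 (0.78), Cyth3 and Aatk (both 0.77), and Ccng1 by S100a11 (0.85), Prdx5 (0.84) and Anxa1 (0.82). Glb1 had the lowest values, with G6pdx (0.72), Gapdh (0.68) and Pkm (0.67).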

How the data were processed

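Right lungs of 6 mice, 3 per group, were measured in 1 single-cell 3′ library each. The deposited values are raw counts of UMIs per gene and barcode, empty droplets included, which the authors made by aligning the reads to mm10 with Cell Ranger (version 7.0.0 per the submitters' processing notes, while the file header and methods name others). No ambient correction had been applied to the deposited counts. Groups were taken from the labels.

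Barcodes were called as cells by a UMI threshold (1 in 10 of the 99th percentile of the 5000 largest barcodes) and, from 500 UMIs, where their profile departed from that of empty droplets (ranks 45000 to 90000) with a false discovery rate under 0.01. Cells with under 200 genes or over 10% mitochondrial UMIs were removed, as were the highest doublet scores at 0.8% per 1000 cells. Gates needed at least 3 of 10 markers and a lead of 2, and AT2 cells also 2% of their UMIs from their markers. UMIs were summed per mouse and gate, from at least 5 cells, and tested with edgeR 4.0.16 in R 4.3.3 (TMM scaling, filterByExpr, quasi-likelihood F test, Benjamini-Hochberg adjustment over all genes tested). Shares of cells were tested by exact permutation over mice. The test code was checked on simulated counts. Labels do not give litters, so p-values between treatments measure the spread between these mice. Those between gates, with the mouse as a block, measure how gate differences vary over the same mice.

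Alternatives were DESeq2 1.42.0, total UMIs in place of TMM, no filter on low counts, the UMI threshold alone, doublets kept, stricter gates (4 markers, lead of 3), every mouse kept, a replicate block, thinning to 1000 UMIs and leaving out each mouse. The depth limits low genes most, and 3 UMIs of a sum were taken as the limit that a count of 0 allows. The 8 genes and the lists were chosen with earlier results of these data known. Named were the 8 genes in every gate, per list up to 3 genes per gate with the largest difference among those called higher (from which examples were taken), list genes called between treatments and the 2 pairs per list with the lowest p, and per gene the 3 genes of highest correlation. The comparisons of cells with and without Cdkn2a, the search of promoters and the comparison limited to deep cells were added after the data were seen.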

Additional observations from a re-analysis of the deposited data

How the results depend on the processing

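The 8 genes kept a call of 0 between treatments under every alternative except the lack of a filter on low counts, and of 626 alternative values of the 49 fold changes 563 kept direction and side of the threshold, 60 changed sign and 3 passed it. Between gates 543 of 576 values did so, 14 changed sign, 13 lost and 6 gained the call. The causes were not tested.

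Counts of genes called between treatments rose with no filter on low counts to 36 in AT2 cells, 168 in fibroblasts, 285 in endothelium, 1 in alveolar macrophages, 57 in interstitial macrophages, 114 in T, 270 in B and 71 in NK cells, and to 855 for effects differing between gates. DESeq2 called 12 in fibroblasts, 44 in endothelium, 1 in alveolar macrophages, 42 in T, 19 in B and 1 in NK cells. The UMI threshold alone gave 32 in AT2 cells, 1 in fibroblasts and 0 in T cells, and stricter gates 20 in AT2 cells, 1 in fibroblasts, 0 in endothelium and 12 differing between gates. Total UMIs and doublets kept each gave 0 in endothelium. Leaving out each mouse gave 0 to 41 in AT2 cells, 0 to 1 in fibroblasts, 0 to 7 in endothelium, 0 to 19 in interstitial macrophages, 0 to 7 in T, 0 to 3 in B and 0 to 14 in NK cells, and 0 to 24 differing between gates. That last fit could not be made without IgG1 replicate 2, and keeping every mouse changed the samples of the AT2 fit alone.

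The labels do not say whether replicate numbers pair the mice. Correlations of same-numbered deviations ran from -0.13 to 0.16, and with 3 mice a group such a check cannot decide it. With the replicate block the counts were 0 in fibroblasts, 4 in endothelium, 2 in B and 2 in NK cells, and the fold change became 0.045 for Mdm2 in fibroblasts and -0.0036 for Ccng1 in alveolar macrophages. It called 0 of the 49 gene and gate pairs.

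Fold changes that changed sign were near 0 in most cases. Cdkn1a in fibroblasts became 0.011 with no filter, 0.0042 with the UMI threshold alone and 0.14 with stricter gates. Mdm2 in fibroblasts became 3.1e-04 with total UMIs, 0.029 with no filter and 0.0044 with doublets kept. Ccng1 in alveolar macrophages became -0.0012 with DESeq2, -0.0021 with total UMIs, -9.0e-04 with the UMI threshold, -1.2e-04 with doublets kept and -0.027 with stricter gates. Ccng1 in NK cells became 0.015 with no filter, 0.080 with the UMI threshold and 0.070 with stricter gates. With doublets kept Gdf15 in endothelium became 0.98, Ccng1 in T cells -0.010 and Cdkn1a in NK cells -0.11. With stricter gates Gdf15 and Plaur in interstitial macrophages became -0.36 and -0.14. Of the differences between gates, Cdkn1a in AT2 cells became -0.0077 with stricter gates and -0.12 with the UMI threshold, Gdf15 in fibroblasts -0.12 with no filter, and Cdkn2b and Ccng1 in interstitial macrophages 0.22 and -0.11 with stricter gates. The difference in the share of endothelial cells became -0.218 percentage points for Cdkn2a after thinning and 2.09 for Cdkn2b with the UMI threshold.

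Leaving out each mouse in turn changed the sign of fold changes, whose range in fibroblasts was -0.27 to 0.19 for Cdkn1a, -0.24 to 0.43 for Mdm2 and -0.32 to 0.12 for Glb1. In endothelium the range was -0.32 to 0.038 for Cdkn2b, -0.69 to 0.55 for Gdf15 and -0.15 to 0.74 for Glb1. In alveolar macrophages the range was -0.49 to 0.28 for Cdkn2a, -0.22 to 0.57 for Cdkn2b, -0.14 to 0.20 for Mdm2, -0.064 to 0.067 for Ccng1, -0.046 to 0.17 for Plaur and -0.11 to 0.082 for Glb1. In interstitial macrophages the range was -0.25 to 0.59 for Cdkn1a, -0.0081 to 0.59 for Mdm2 and -0.49 to 0.059 for Ccng1. In T cells the range was -0.023 to 0.11 for Ccng1 and -0.086 to 0.31 for Plaur. In NK cells the range was -0.11 to 0.29 for Cdkn1a, -0.33 to 0.0039 for Gdf15, -0.079 to 0.23 for Mdm2 and -0.034 to 0.039 for Ccng1. For differences between gates it was -0.36 to 0.35 for Cdkn1a and -0.18 to 0.77 for Gdf15 in AT2 cells, and -0.19 to 0.12 for Gdf15 in fibroblasts, and -1.80 to 0.030 for Cdkn2b in interstitial macrophages. For shares, in percentage points, it was -0.104 to 2.17 for Cdkn2a and -5.11 to 0.248 for Cdkn2b in endothelium, and -0.0686 to 1.23 for Cdkn2a in alveolar macrophages.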
